A study of Homo sapiens with 8 samples.

Results

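This account covers 10 genes that make or carry fucose and glycolipid antigens of the cell surface, out of 23368 gene symbols counted in HEK293F cells. They are the fucosyltransferase genes FUT1, FUT4, FUT8, FUT10 and FUT11, the glycosphingolipid genes UGCG, ST3GAL5, A4GALT and B3GALNT1, and CD24, which encodes a heavily glycosylated surface protein. The list was drawn up because FUT1, CD24 and A4GALT were higher with MOV10 gain, and FUT1 and CD24 lower with MOV10 loss. Their values in these comparisons, and those of the other members, are therefore given as a description and not as a test. Reads were found for 9 of the 10, and these 9 passed the filter on low counts.

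HEK293F is a human cell line of embryonic kidney origin, and MOV10 is an RNA helicase that associates with the fragile X protein FMRP. Overexpression cells (3 libraries) received a single transfection of myc-tagged MOV10. Knockdown cells (2 libraries, replicates 2 and 3) received MOV10 siRNA 3 times at intervals of 24 h, and control cells (3 libraries) received an irrelevant siRNA on the same schedule. Cells given an empty plasmid were not analysed here, and no siRNA treatment is listed for the overexpression cells. Plasmid delivery, the difference in siRNA treatment and the rise of MOV10 therefore cannot be told apart in overexpression against control. The same limit holds for overexpression against knockdown.

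Fucosyltransferases move fucose from GDP-fucose onto sugar chains or proteins, most of them in the Golgi. FUT1 adds it in alpha-1,2 linkage to terminal galactose and so makes the H antigen, the base of the A and B blood groups, while FUT4 adds it in alpha-1,3 linkage and makes Lewis x type structures. Glycosphingolipids begin with UGCG, which puts glucose on ceramide. After lactosylceramide the path divides: ST3GAL5 adds sialic acid to give GM3, the first ganglioside, and A4GALT adds galactose to give Gb3, the Pk blood group antigen and receptor of Shiga toxin, which B3GALNT1 extends to globoside.

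Libraries held between 12.7 M and 32.8 M counted reads. MOV10 followed its labels: in CPM, read counts scaled to library size with TMM, it stood at 2971, 2916 and 2454 CPM in overexpression libraries, at 50.6 and 55.5 CPM in knockdown libraries, and at 76.8, 76.4 and 91.2 CPM in control libraries. Markers chosen for HEK293 cells (PAX2, LHX1, CDH2, KRT8, KRT18 and VIM) summed to 1097 to 1150 CPM with overexpression. Their sum was 1422 to 1498 CPM with knockdown and 1202 to 1221 CPM in control. VIM made up most of it, with means of 772 CPM with overexpression, 1055 CPM with knockdown and 827 CPM in control. VIM and CDH2 carried the higher knockdown sum (log2 0.35 and 0.34), while PAX2 and LHX1 were called lower with knockdown (log2 -0.40 and -0.38) and KRT8 and KRT18 lay below every control library without a call. The part of these shifts in the results was not tested. Each of the marker lists for blood, endothelial and liver cells summed to less than 3 CPM in every library, with the liver marker TTR at 0 in all. In bulk RNA, fewer cells with a transcript and less of it per cell cannot be told apart.

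FUT1 was the member with the widest range between groups on the log2 scale. It had 19.6, 19.7 and 20.8 CPM in overexpression libraries, 3.77 and 5.10 CPM in knockdown libraries, and 11.6, 9.79 and 10.6 CPM in control libraries. Every overexpression library lay above and both knockdown libraries lay below all controls. The fold change was 1.86 with overexpression (log2 0.90 ± 0.09, SE) and 0.402 with knockdown (log2 -1.31 ± 0.13, SE). Among all 15254 tested genes FUT1 ranked 494 from the top with overexpression and 135 from the bottom with knockdown.

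CD24, a small mucin-like protein held to the membrane by a GPI anchor, was also high with overexpression and low with knockdown. It had 62.5, 62.2 and 71.0 CPM in overexpression libraries, 18.1 and 24.7 CPM in knockdown libraries, and 35.5, 35.4 and 38.6 CPM in control libraries. No groups overlapped. The log2 fold change was 0.83 ± 0.08 with overexpression and -0.79 ± 0.10 with knockdown (SE). GENCODE 29 lists 3 processed pseudogenes named after CD24, none of them in the count table, and how reads shared with such copies were assigned is not given in the sources used here, so the CD24 counts are uncertain to that extent.

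A4GALT, the Gb3 synthase gene, was the lowest of the 9 genes with reads. It had 4.46, 5.28 and 4.99 CPM in overexpression libraries, 1.78 and 1.97 CPM in knockdown libraries, and 2.17, 2.69 and 2.47 CPM in control libraries. The 3 groups did not overlap, but knockdown and control lay close together. Overexpression gave a fold of 2.01 (log2 1.01 ± 0.15, SE), the highest log2 fold change of the 9 genes in that comparison. The knockdown difference of -0.39 ± 0.19 (log2, SE) did not pass the threshold for a call.

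**Figure D1:**
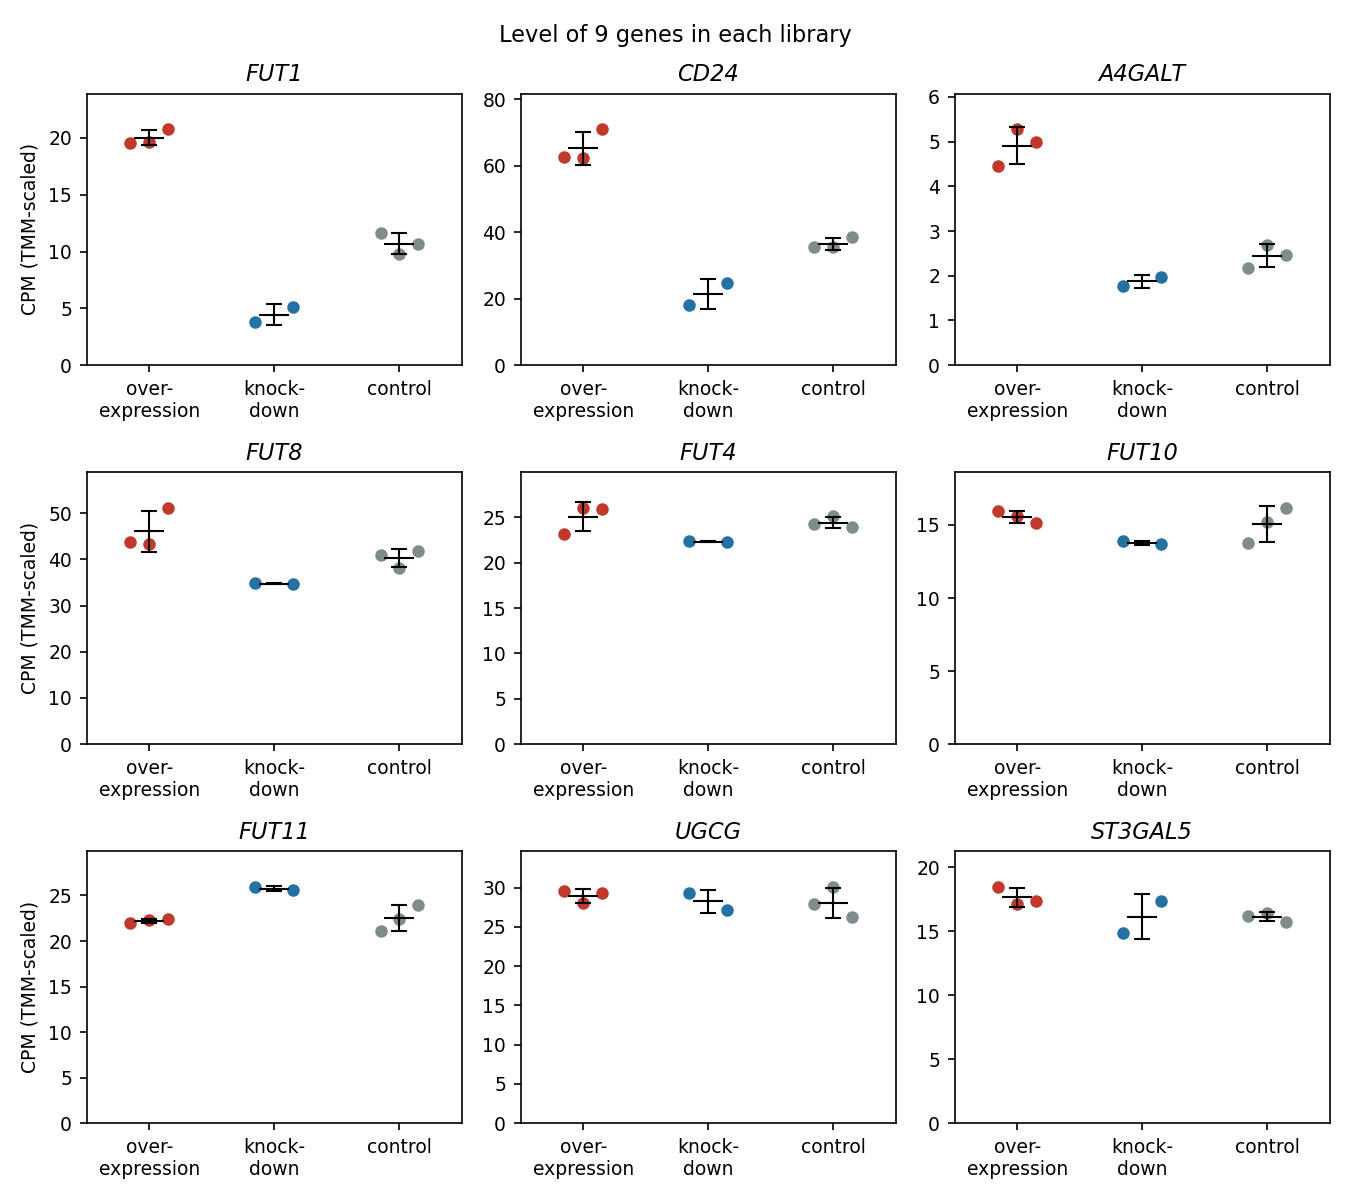
Level of each of the 9 genes with reads, in TMM-scaled CPM, with 1 point per library and the group mean ± SD as bars. Overexpression, knockdown and control stand from left to right. FUT1, CD24 and A4GALT show 3 separate groups, while UGCG lies between 26.2 and 30.1 CPM in all 8 libraries.

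Because these 3 genes lead the list, the sequences before their RefSeq transcription starts (GRCh38.p14, 250 bases, minus strand in each case, written 5′ to 3′) are shown, with each GC box in capitals. A GC box here is GGGCGG on either strand, where neighbouring matches may overlap. FUT1 has 2 listed starts, at chr19:48755359-48755608 for the first window and chr19:48752642-48752891 for the second. A4GALT has 2 listed starts and CD24 has 3, and the first of each is shown, at chr22:42720871-42721120 for A4GALT and chr6:106975628-106975877 for CD24. Which start the HEK293F transcripts used was not measured here.
FUT1 first start: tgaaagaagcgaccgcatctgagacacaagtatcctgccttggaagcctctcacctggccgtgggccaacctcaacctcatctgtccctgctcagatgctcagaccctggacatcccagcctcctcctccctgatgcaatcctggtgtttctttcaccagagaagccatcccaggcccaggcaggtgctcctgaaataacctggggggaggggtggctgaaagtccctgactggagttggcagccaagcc
FUT1 second start: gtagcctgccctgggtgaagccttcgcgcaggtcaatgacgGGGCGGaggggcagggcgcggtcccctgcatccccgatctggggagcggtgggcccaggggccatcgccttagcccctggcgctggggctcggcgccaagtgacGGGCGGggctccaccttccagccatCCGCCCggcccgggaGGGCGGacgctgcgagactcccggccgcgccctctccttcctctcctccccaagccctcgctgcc
A4GALT first start: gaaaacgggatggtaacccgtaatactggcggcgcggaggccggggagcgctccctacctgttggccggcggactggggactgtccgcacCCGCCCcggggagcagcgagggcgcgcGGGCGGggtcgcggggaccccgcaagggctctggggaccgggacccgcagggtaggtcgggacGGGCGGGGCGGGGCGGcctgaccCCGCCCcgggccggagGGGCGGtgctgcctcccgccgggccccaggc
CD24 first start: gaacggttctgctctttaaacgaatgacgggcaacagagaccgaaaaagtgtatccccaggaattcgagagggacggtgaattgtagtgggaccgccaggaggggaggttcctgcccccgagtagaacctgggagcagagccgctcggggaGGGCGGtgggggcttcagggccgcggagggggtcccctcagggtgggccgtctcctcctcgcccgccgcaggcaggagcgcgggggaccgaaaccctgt

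The first FUT1 window held 0 GC boxes at 58.4% G and C, and the second held 4 at 74.8%. The first A4GALT window held 7 at 79.2% and the second, not shown, 1 at 42%. The first CD24 window held 1 at 65.6%, the second 0 at 73.2% and the third 1 at 64%. RefSeq windows were taken for 8 members, all but FUT10 and FUT11. Member windows on chromosome 8 were left out, while the shares of all listed windows include that chromosome. Of their 20 windows, 11 held a GC box (55%), and 42.6% of all 35116 listed windows did. UGCG, whose level was near the same in all groups, held 3 GC boxes. FUT4 held 0 and the windows of ST3GAL5 held 3, 2, 1, 0 and 0, both genes being called in neither comparison with control. A TATA box (TATAAA on either strand) occurred in 0 of the 20 windows and in 10.7% of all windows. A CCAAT box (CCAAT on either strand) occurred in 8 of the 20 and in 32% of all windows. Windows of 1 gene can overlap, as in ST3GAL5 and CD24, so the same letters can be counted more than once. Such matches describe the letters of these windows.

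Among the other fucosyltransferase members, FUT8, which adds the core fucose of N-glycans, shifted slightly. It had 43.7, 43.4 and 51.2 CPM in overexpression libraries, 34.8 and 34.7 CPM in knockdown libraries, and 41.0, 38.1 and 41.7 CPM in control libraries. The groups did not overlap, and the third overexpression library stood apart at the top. The log2 fold change was 0.19 ± 0.07 with overexpression and -0.21 ± 0.08 with knockdown (SE), both past the threshold for a call. Without overexpression replicate 3 the overexpression value was 0.12 and was not called, nor was it without control replicate 1 (0.21) or control replicate 2 (0.15). The knockdown call was lost with DESeq2 (-0.21) and without knockdown replicate 2 (-0.22), knockdown replicate 3 (-0.20), control replicate 1 (-0.19) or control replicate 3 (-0.19).

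FUT4 and FUT10 were called in neither comparison with control. FUT4 had 23.2, 26.1 and 25.9 CPM in overexpression libraries, 22.4 and 22.3 CPM in knockdown libraries, and 24.3, 25.1 and 23.9 CPM in control libraries. Its log2 fold changes of 0.03 ± 0.07 with overexpression and -0.13 ± 0.08 with knockdown (SE) were not called, although both knockdown libraries lay below the controls. FUT10 had 15.9, 15.6 and 15.1 CPM in overexpression libraries, 13.9 and 13.7 CPM in knockdown libraries, and 13.7, 15.2 and 16.2 CPM in control libraries. Groups overlapped in both comparisons with control, with log2 fold changes of 0.06 ± 0.08 and -0.12 ± 0.09 (SE) for overexpression and knockdown. FUT10 and FUT11 resemble the alpha-1,3-fucosyltransferases in sequence, and both encoded enzymes act in the endoplasmic reticulum.

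FUT11 was the one member higher with knockdown. It had 22.01, 22.3 and 22.4 CPM in overexpression libraries, 25.9 and 25.6 CPM in knockdown libraries, and 21.1, 22.4 and 24.0 CPM in control libraries. Both knockdown libraries lay above every other library. The log2 fold change with knockdown was 0.20 ± 0.08 and with overexpression -0.01 ± 0.07 (SE). Its knockdown call held in 7 of 16 alternatives, and the value ran from 0.16 to 0.24 over them. It was lost, among others, without either knockdown library, without overexpression replicate 1 and without control replicate 1 or 2.

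The genes at the head of the glycosphingolipid path were near level between the groups. UGCG had 29.6, 28.0 and 29.3 CPM in overexpression libraries, 29.3 and 27.2 CPM in knockdown libraries, and 27.9, 30.1 and 26.2 CPM in control libraries. All 3 groups overlapped, with log2 fold changes of 0.04 ± 0.07 with overexpression and 0.01 ± 0.08 with knockdown (SE). ST3GAL5 had 18.5, 17.1 and 17.3 CPM in overexpression libraries, 14.9 and 17.4 CPM in knockdown libraries, and 16.2, 16.5 and 15.8 CPM in control libraries. The overexpression libraries lay just above the controls (log2 0.13 ± 0.08, SE) and the knockdown libraries lay on both sides of them (-0.02 ± 0.09, SE), and neither value was called.

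B3GALNT1, the globoside synthase gene, had 0 reads in each of the 8 libraries. A limit of 3 counts corresponds to 0.0951 CPM in the deepest library and to 0.23 CPM in the shallowest, and it covers counting error only. In GENCODE 29 the gene overlaps NMD3 on the opposite strand, and FUT4 and FUT10 overlap PIWIL4 and TTI2 on the same strand. GENCODE 29 also lists a processed pseudogene named after B3GALNT1, which is not in the count table. How reads in such overlaps, or shared with such a copy, were counted is not given in the sources used here. Their part in these counts was not tested.

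With overexpression, 4 of the 9 tested members were called higher (edgeR, adjusted p under 0.05): FUT1, CD24, A4GALT and FUT8. By the same rule 25.2% of all tested genes were called higher and 24.1% lower, 49.2% in either direction. Called lower were 0 members by edgeR, by DESeq2 and at an unadjusted p under 0.05. With knockdown, 3 members were called lower (FUT1, CD24 and FUT8) and 1 higher (FUT11), where 19.1% of all tested genes were called lower and 19.9% higher, 39% in either direction. With overexpression 5 members lay above every control library, as did 28.5% of all tested genes, and 0 lay below, as did 27.5%. With knockdown 5 lay below every control library and 1 above, as did 31.1% and 32.5% of all tested genes. Since the list was chosen on these comparisons, nothing is read from these counts. The median log2 fold change of the 9 members was 0.13 with overexpression and -0.13 with knockdown, against 0.02 and 0.00 for all tested genes. Both comparisons share the control libraries.

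Overexpression was also set directly against knockdown, where the control libraries enter the estimate of the spread. FUT1 differed by 2.21 ± 0.12, CD24 by 1.63 ± 0.10, A4GALT by 1.40 ± 0.17 and FUT8 by 0.40 ± 0.08 (log2, SE), which are 4.63-, 3.09-, 2.64- and 1.31-fold. FUT11 was lower with overexpression by this comparison (-0.21 ± 0.08). The calls were 4 higher and 1 lower among the members, and 29.3% higher and 28.1% lower among all tested genes, 57.4% in either direction. In this comparison 6 members lay above every knockdown library and 1 below, as did 35.4% and 33.7% of all tested genes. Scaled by library totals, 65.5% of all called genes were higher in this comparison, against 51% with TMM, and FUT4, FUT10 and ST3GAL5 were then called higher at 0.25, 0.26 and 0.23 (log2) while FUT11 was not called. For knockdown against control the same change of scaling moved the share of higher genes to 39.5%, against 51.1% with TMM.

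**Figure D2:**
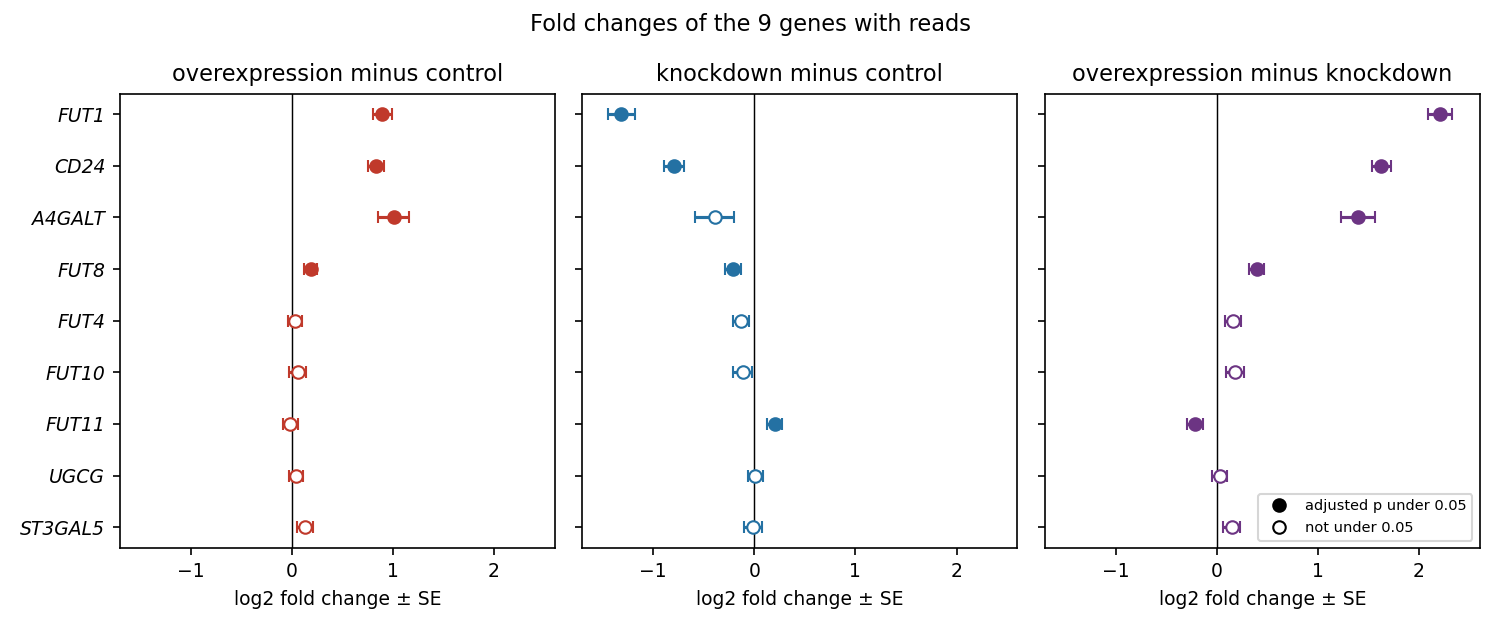
Log2 fold change ± SE of the 9 genes with reads, in 3 panels for overexpression minus control, knockdown minus control and overexpression minus knockdown. Filled points passed an adjusted p of 0.05 in the edgeR fit. FUT1, CD24 and A4GALT lie at 2.21, 1.63 and 1.40 in the last panel and UGCG at 0.03.

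Levels between genes were compared per length, as RPKM (CPM divided by the length of the joined exons in kilobases). In control libraries CD24 was highest at 12.0 ± 0.60 RPKM (SD, n = 3, as for the values that follow), before FUT11 at 10.3 ± 0.65, FUT8 at 7.35 ± 0.36, UGCG at 7.01 ± 0.48, FUT4 at 4.03 ± 0.10, FUT10 at 3.93 ± 0.32, ST3GAL5 at 2.81 ± 0.06, FUT1 at 2.51 ± 0.22 and A4GALT at 0.945 ± 0.10. FUT8 and UGCG overlapped between libraries, as did FUT4 and FUT10, and the other neighbours did not. With overexpression FUT1 stood at 4.70 ± 0.16 RPKM and took place 5 of 9 in all 3 libraries. It had place 8 in both knockdown libraries, at 1.04 ± 0.22 RPKM (n = 2), and in all 3 control libraries. CD24 was at 21.4 ± 1.64 RPKM with overexpression, and with knockdown, at 7.03 ± 1.52 RPKM (n = 2), it ranked below FUT11 in both libraries.

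**Figure D3:**
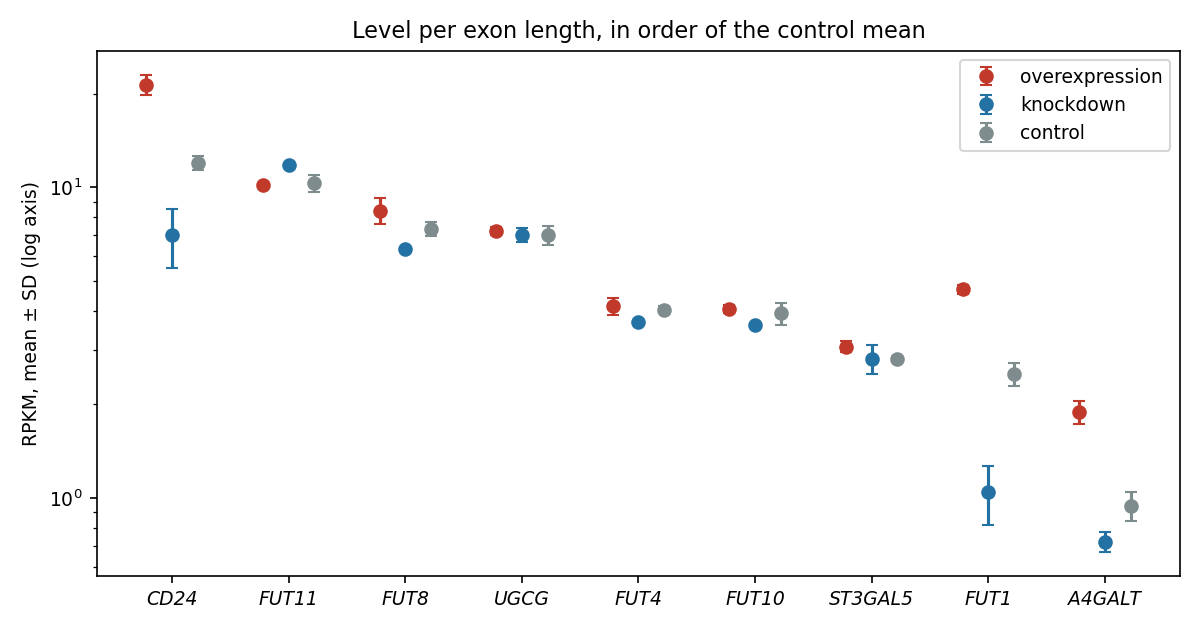
Mean level per exon length in RPKM on a log axis, with SD as bars, for the 9 genes with reads in order of the control mean. Overexpression, knockdown and control stand from left to right at each gene. FUT1 reaches 4.70 RPKM with overexpression, above FUT4 at 4.14 RPKM in the same cells.

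Ratios of 2 genes within a library do not depend on how libraries are scaled. The ratio of A4GALT to ST3GAL5, the branch enzymes of Gb3 and GM3, was 0.537, 0.684 and 0.639 in overexpression libraries, 0.265 and 0.251 in knockdown libraries, and 0.298, 0.363 and 0.348 in control libraries (RPKM ratios). The ratio of FUT1 to FUT4 was 1.20, 1.07 and 1.14 in overexpression libraries, 0.240 and 0.326 in knockdown libraries, and 0.680, 0.554 and 0.632 in control libraries. Neither ratio overlapped between groups. CD24 and FUT1 did not keep one ratio: CD24 over FUT1 was 4.46, 4.42 and 4.78 with overexpression, 6.72 and 6.76 with knockdown, and 4.28, 5.06 and 5.08 in control, so knockdown lay above both other groups.

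The genes whose pattern over the 8 libraries lay nearest to FUT1 were sought among 13255 genes outside the list, by the root mean square distance of log2 CPM from the control mean. The nearest 5 were TCF24 at a distance of 0.15, C8orf4 at 0.17, JAK3 at 0.21, LINC00173 at 0.25 and FILIP1 at 0.25 (log2). All 5 were low to moderate in level, with control means from 3.39 CPM for C8orf4 to 7.67 CPM for LINC00173. TCF24 averaged 9.75 CPM with overexpression, 2.51 CPM with knockdown and 5.39 CPM in control. JAK3, a kinase of cytokine receptor signalling, averaged 7.98 CPM with overexpression, 2.21 CPM with knockdown and 4.60 CPM in control. Of the members, CD24 lay at 0.25, A4GALT at 0.48 and the other 6 at 0.69 to 0.93.

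**Figure D4:**
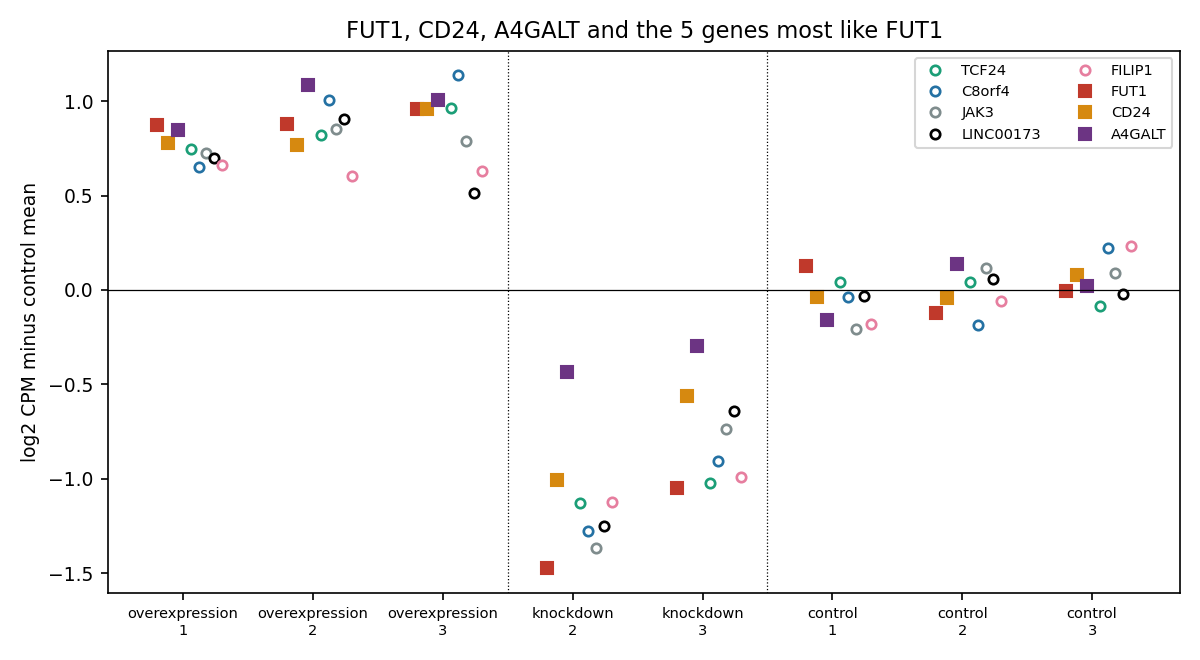
Log2 CPM minus the mean of the control libraries, for FUT1, CD24 and A4GALT (squares) and the 5 genes nearest to FUT1 (open circles), in each of the 8 libraries. Dotted lines part the overexpression, knockdown and control libraries from left to right. In knockdown libraries A4GALT lies above the other 7 genes.

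The members' transcripts differed in length and base composition. FUT1 and A4GALT were rich in G and C, at 57.2% and 61.8% of the longest transcript, higher than 76.5% and 90.3% of tested genes, while CD24 had 45.8%. The longest annotated 3′ UTR was 2176 nt in FUT1, 1833 nt in CD24 and 781 nt in A4GALT, against a median of 1384 nt. FUT4 had the longest of the list at 4175 nt.

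The rest of the pathway was described through 8 lists with 132 genes outside the 10, of which 117 were tested. With overexpression 27 were called higher and 20 lower, 40.2% against 49.2% of all tested genes, and with knockdown 36 higher and 24 lower, 51.3% against 39% of all tested genes. Without knockdown replicate 2 the knockdown counts were 21 and 11, and those of all tested genes 1577 higher and 1466 lower against 3036 and 2907. Beside the counts of each list below, 25.2% of all tested genes were called higher and 24.1% lower with overexpression. With knockdown these shares were 19.9% and 19.1%. The log2 fold changes below are given with SE and the Benjamini-Hochberg adjusted p of the edgeR quasi-likelihood F test.

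Of 8 other fucosyltransferase genes 4 were tested. FUT9, which makes Lewis x in the nervous system, had 8.50, 8.68 and 10.4 CPM in overexpression libraries, 2.47 and 3.72 CPM in knockdown libraries, and 5.98, 6.52 and 4.94 CPM in control libraries. The groups did not overlap. FUT9 rose with overexpression (0.62 ± 0.13, adjusted p = 0.000608) and fell with knockdown (-0.98 ± 0.17, adjusted p = 0.000161). POFUT1, which puts O-fucose on EGF repeats of proteins such as Notch, fell with overexpression (-0.43 ± 0.05, adjusted p = 5.71e-07) and rose with knockdown (0.16 ± 0.05, adjusted p = 0.0242). That knockdown call was lost with library totals and without either knockdown library, control replicate 2 or control replicate 3. POFUT2, its counterpart for thrombospondin repeats, rose with knockdown (0.25 ± 0.07, adjusted p = 0.00726), a call lost without knockdown replicate 2 or control replicate 2. FUT3, the Lewis enzyme gene, was called higher in both comparisons, but at 2 to 5 reads per control library and with close relatives in FUT5 and FUT6 its value is uncertain, and neither call was made by DESeq2.

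Genes that supply GDP-fucose or remove fucose formed the next list. Of 9, 1 rose and 1 fell with overexpression (median 0.12), and 4 rose and 1 fell with knockdown (median 0.07). GMDS, the first enzyme of GDP-fucose synthesis, fell with knockdown (-0.25 ± 0.07, adjusted p = 0.00984) and stood at -0.17 ± 0.07 with overexpression. The overexpression call was lost in 7 of 16 alternatives. TSTA3, the next enzyme of that route, rose by 0.26 ± 0.08 with knockdown and FUK, the fucose kinase of the salvage route, by 0.32 ± 0.10 (adjusted p = 0.0124 and 0.0109). The calls of GMDS, TSTA3 and FUK with knockdown were lost without knockdown replicate 2 or control replicate 2. FUCA1, the lysosomal fucosidase, rose by 0.27 ± 0.06 with knockdown (adjusted p = 0.00167). It was also the 1 gene higher with overexpression (0.14 ± 0.06, adjusted p = 0.0435), a call lost in 13 of 16 alternatives.

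Ceramide synthesis lies upstream of UGCG. Of 14 tested genes 2 rose and 2 fell with overexpression, and 3 rose and 2 fell with knockdown. The ceramide synthase gene CERS6 fell in both, at -0.36 ± 0.05 with overexpression (adjusted p = 3.16e-06) and -0.24 ± 0.05 with knockdown (adjusted p = 0.00115). CERS2 fell with overexpression (-0.31 ± 0.04, adjusted p = 7.96e-06) and the sphingomyelin synthase gene SGMS2 rose (0.23 ± 0.07, adjusted p = 0.00569). With knockdown SPTLC1 and SPTLC2, subunits of the enzyme that begins sphingolipid synthesis, rose by 0.23 ± 0.06 and 0.25 ± 0.05 (adjusted p = 0.00246 and 0.00112).

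Other genes of glycosphingolipid synthesis were called lower in 8 of 18 cases and higher in 3 with knockdown (median -0.23), where 19.1% of all tested genes were lower and 19.9% higher. With overexpression 4 were called each way (median 0.00), where 25.2% of all tested genes were higher and 24.1% lower. GLTP, a glycolipid transfer protein, fell in both, at -0.47 ± 0.06 with overexpression and -0.52 ± 0.06 with knockdown (adjusted p = 1.54e-06 and 2.55e-06). PLEKHA8, which carries glucosylceramide through the Golgi, fell with knockdown (-0.46 ± 0.06, adjusted p = 8.36e-06). GBGT1, at a mean of 1.96 CPM in control, stood at -0.72 ± 0.22 with overexpression and -1.18 ± 0.25 with knockdown (adjusted p = 0.0108 and 0.000952). ST3GAL1, a sialyltransferase of O-glycans and gangliosides, rose by 0.64 ± 0.07 with overexpression and 0.35 ± 0.07 with knockdown (adjusted p = 1.53e-07 and 0.000682). B4GALT5, a lactosylceramide synthase gene, fell with overexpression (-0.26 ± 0.05, adjusted p = 0.000327). B4GALT6, the other lactosylceramide synthase gene, rose by 0.24 ± 0.06 with overexpression and 0.20 ± 0.06 with knockdown (adjusted p = 0.00151 and 0.014). B3GALT5, which extends globoside toward the acceptor of globo-H, had less than 1 CPM in all 8 libraries.

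Genes of glycosphingolipid breakdown were called higher in 7 of 14 cases and lower in 2 with knockdown (median 0.20), where 19.9% of all tested genes were higher and 19.1% lower. With overexpression 1 was called higher and 3 lower (median -0.03). GLA, the alpha-galactosidase that removes the galactose added by A4GALT, rose with knockdown (0.33 ± 0.06, adjusted p = 0.00021). GLB1, a beta-galactosidase, rose by 0.58 ± 0.07 (adjusted p = 2.28e-06) and PSAP, the precursor of the saposins, by 0.45 ± 0.05 (adjusted p = 9.24e-07).

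The chains that FUT1, FUT4 and FUT9 act on are built by a further list, in which 6 of 17 rose and 2 fell with overexpression (median 0.20), and 3 rose and 5 fell with knockdown (median -0.23). GCNT2, which makes the branched I antigen, had 20.9, 21.4 and 25.1 CPM in overexpression libraries, 8.09 and 9.20 CPM in knockdown libraries, and 15.6, 17.1 and 18.6 CPM in control libraries. No groups overlapped. It rose by 0.39 ± 0.09 with overexpression (adjusted p = 0.00112) and fell with knockdown to a log2 difference of -0.99 ± 0.11 (adjusted p = 6.51e-07). ST6GAL1, which caps chains with alpha-2,6 sialic acid, fell with knockdown (-0.39 ± 0.08, adjusted p = 0.000425). B3GALT6 and B4GALT3 rose with knockdown, by 0.37 ± 0.07 and 0.32 ± 0.06 (adjusted p = 0.000182 and 0.00032). B4GALT2 fell with overexpression (-0.45 ± 0.06, adjusted p = 2.12e-06).

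In N-glycan branching, which prepares the acceptor of FUT8, 4 of 13 genes rose and 1 fell with overexpression, and 5 rose and 1 fell with knockdown. MGAT3, which adds the bisecting sugar, had 21.3, 22.3 and 20.6 CPM in overexpression libraries, 9.86 and 12.7 CPM in knockdown libraries, and 11.04, 11.1 and 13.8 CPM in control libraries. The overexpression libraries lay above all others. It rose with overexpression (0.86 ± 0.10, adjusted p = 7e-07). MGAT4A, a branching enzyme, fell with knockdown (-0.55 ± 0.07, adjusted p = 1.84e-06), and MGAT2 rose in both, by 0.29 ± 0.05 with overexpression and 0.47 ± 0.06 with knockdown (adjusted p = 0.000126 and 2.08e-06).

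GPI anchors, which hold CD24 to the membrane, are made by a list in which 7 of 28 genes rose and 6 fell with overexpression (median 0.03), and 8 rose and 4 fell with knockdown (median -0.01). PIGK, the catalytic subunit of the transamidase that attaches the anchor, rose by 0.29 ± 0.06 with overexpression and 0.51 ± 0.07 with knockdown (adjusted p = 0.000555 and 5.2e-06). DPM1, which supplies mannose for the anchor, rose with overexpression (0.38 ± 0.06, adjusted p = 6.33e-05), and PGAP2, an anchor remodelling gene, fell (-0.34 ± 0.07, adjusted p = 0.000422).

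**Figure D5:**
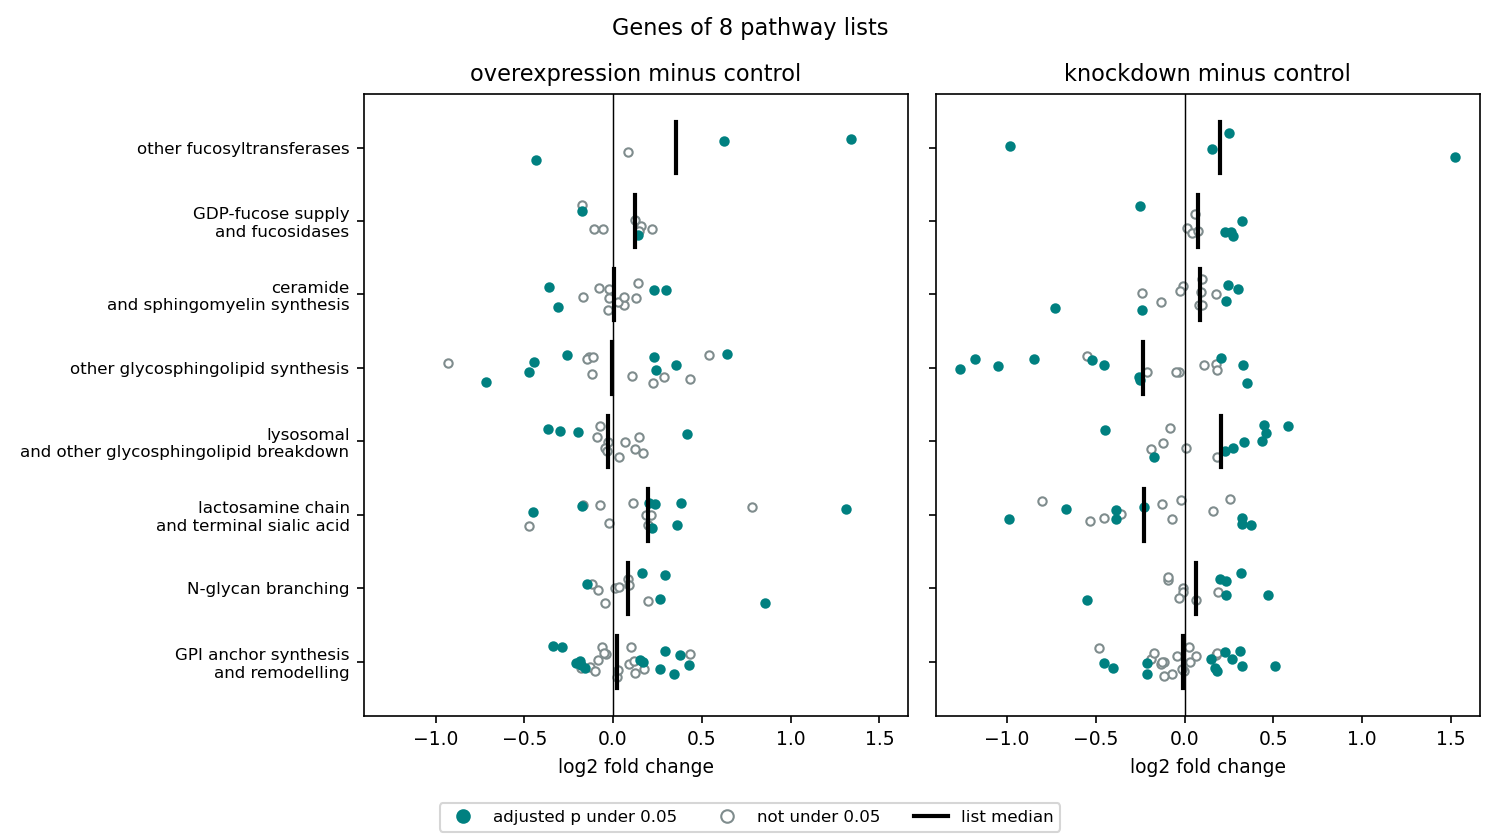
Log2 fold change of each of the 117 tested genes in 8 pathway lists, for overexpression minus control on the left and knockdown minus control on the right. Filled points passed an adjusted p of 0.05 and black bars are list medians. Medians run from -0.03 to 0.36 with overexpression and from -0.23 to 0.20 with knockdown.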

How the data were processed

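The authors deposited a table of raw read counts for each gene symbol in 8 RNA-seq libraries. A stranded TruSeq kit was used on Trizol RNA, per the labels' protocols. Per the submitters' processing notes, Trimmomatic 0.22, TopHat2 2.0.8, HTSeq 0.5.3p9 and the build hg19 were used. How strand and multiply aligned reads were handled in counting is not given in the sources used here. Counts were scaled with TMM and fitted in R 4.3.3 with edgeR 4.0.16 (filterByExpr with a minimum count of 10, glmQLFit, quasi-likelihood F test, two-sided). One fit held all 8 libraries with a mean per group, and p-values were adjusted by Benjamini-Hochberg over 15254 tested genes. The SE of a log2 fold change was derived as its absolute value divided by the square root of the F statistic. The fit was also run on simulated counts drawn with its own estimates of spread. Far fewer genes were changed there than were called here, so that run cannot check these calls. RPKM divides CPM by the length of the joined exons of GENCODE 29, which belongs to another build than the counts. GENCODE 29 served for lengths, names, base composition, pseudogene copies and gene overlaps, and the overlaps were not checked in hg19. Promoter windows come from RefSeq on GRCh38.p14.

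The members and the pathway lists were chosen with earlier results of these data known. The genes named were drawn from MOV10, all 10 members, up to 4 called genes with the smallest adjusted p for each pathway list and comparison with control, and the 5 genes most like FUT1. Results for a few of these genes are left out here. The HEK293 markers, B3GALT5, B4GALT6, PIWIL4, TTI2, NMD3 and the genes of the closing observations were named outside this rule, after their values were seen. The labels do not say whether a group's libraries are separate cultures, so the p-values reflect library-to-library spread that may be technical. Libraries of a group differed by more than sampling noise (chi-square per gene 1.88 to 8.01), which does not show that they are separate cultures. Each library was counted as a replicate. Alternatives were size factors, library totals, other count filters, DESeq2 1.42.0, limma-voom (limma 3.58.1), only the compared groups, the replicate number as a block and leaving out each library.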

Additional observations from a re-analysis of the deposited data

How the results depend on the processing

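FUT1 and CD24 kept their direction and were called in all 3 comparisons under all 16 alternatives: FUT1 ran from 0.83 to 0.97 with overexpression and from -1.50 to -1.07 with knockdown, CD24 from 0.78 to 0.87 and from -1.002 to -0.56. A4GALT was called with overexpression in 16 of 16 alternatives (0.92 to 1.09) and with knockdown in 0 of 16 (-0.48 to -0.31). By library totals in place of TMM, 0 members were called higher with knockdown, and overexpression against knockdown gave 7 members higher and 0 lower, with 18 pathway genes lower against 34. Without a filter on low counts and by DESeq2, 0 members were higher with knockdown. With the replicate number as a block, 0 members were higher with knockdown and 0 lower in overexpression against knockdown, since FUT11 was not called. Same-numbered libraries correlated at -0.31 to 0.21 in their deviations from the group means, and differently numbered ones at -0.24 to 0.31. Centring on groups of 2 or 3 libraries ties these values to each other, so they cannot decide whether the numbers mark a pairing.

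Leaving out 1 library at a time gave 0 to 1 members higher with knockdown and 0 to 1 lower in overexpression against knockdown. Genes called with knockdown ran from 1577 to 3749 higher and 1466 to 3484 lower, pathway genes from 21 to 41 higher and 11 to 30 lower, and in overexpression against knockdown from 16 to 30 higher and 20 to 39 lower. The lowest of these gene and pathway counts all came without knockdown replicate 2, where the lone library left is assumed to vary like the other groups. Of 61 named pathway calls, 48 held under every alternative that could be fitted and 13 were lost under at least 1. Depth limits the low genes most: A4GALT had 37 to 118 reads per library and FUT3 2 to 16.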

Other observations

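Several genes that would complete the blood group and Lewis structures were at or near 0 reads and entered no comparison. FUT2, the other H antigen enzyme, and GCNT3, an O-glycan branching enzyme, had 0 reads in all 8 libraries, where 3 counts correspond to 0.0951 to 0.23 CPM as a limit from counting error only; how reads were assigned to genes is known no better here than for B3GALNT1. ABO, the gene of the A and B transferases, had at most 4 reads in a library and 14 in all, FUT6 had 2 in all, FUT7 had 21 and FUT5 had 32. ST8SIA1, the GD3 synthase gene that follows ST3GAL5 in the ganglioside path, had 16 reads in all.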
